A study of Mus musculus with 6 samples.

Results

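The inflammasome is the protein complex that activates inflammatory caspases and releases the cytokines IL-1 beta and IL-18. The genes described here, called inflammasome genes for short, encode its parts, inflammatory caspases and other proteins of the same pathway. They were Casp1, Casp4, Casp12, Il18, Il1b, Nlrp3, Mefv, Pycard, Aim2 and Gsdmd, picked by symbol in the platform's probe annotation, and all 10 had a probe set of their own among the 22180 genes measured. They were picked with the differences between these same samples known, so their values are given as a description and without a test. Arrays for whole transcripts measured 3 CCR2-positive and 3 CCR2-negative pools of stem cells sorted by flow cytometry from C57BL/6J mice. CCR2 is the chemokine receptor that guides monocytes out of the marrow. Each pool held the marrow cells of 20 mice and gave 5 ng of total RNA for amplification, so an array shows an average over many animals. No allele or treatment is named for either group. The sources used here give neither the age and sex of the mice nor the further markers of the gate, and they do not say whether a mouse gave cells to pools of both kinds.

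Of the 10 genes, 7 lay lower and 3 higher in CCR2-positive than in CCR2-negative pools, and their median log2 difference was -0.58. Over all 22180 genes 44% lay lower, and the median difference was 0.03. Il18 differed most, with a 2.6-fold lower mean, followed by Casp4 at 2.06-fold, Casp12 at 1.68-fold, Casp1 at 1.64-fold, Gsdmd at 1.52-fold and Aim2 at 1.47-fold lower. Pycard had a mean 1.23-fold lower. Mefv, Nlrp3 and Il1b had means 1.42-fold, 1.22-fold and 1.08-fold higher, all at low signal. The 3 pools of one group did not overlap those of the other for 5 of the genes in the lower direction and for 2 in the higher one. Over all genes these shares were 7.88% and 10.8%, and since the genes were picked on this contrast nothing is read from their own share. In limma's test across the 22180 genes, 0% had an adjusted p under 0.05 and 12.2% an unadjusted p under 0.05.

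An inflammasome forms when a sensor protein detects a microbial product or damage inside the cell and recruits caspase-1, usually through the adaptor ASC. The active caspase cuts the precursors of IL-1 beta and IL-18 and cuts gasdermin D, whose freed part opens pores in the plasma membrane. Most of this machinery is best known from monocytes, macrophages and neutrophils, and its proteins are regulated by cleavage, which transcript levels do not show.

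Casp1, Casp4 and Casp12 lie side by side on mouse chromosome 9, and Il18 lies on the same chromosome far from them. By the RefSeq annotation of build GRCm38.p6, Casp1 spans chr9:5298517-5307281, Casp4 chr9:5308849-5336791 and Casp12 chr9:5345442-5373034. The gap between Casp1 and Casp4 is 1568 bp and that between Casp4 and Casp12 is 8651 bp, and Il18 spans chr9:50554700-50581841. The upstream bases of these 4 genes are shown because the 3 clustered caspases and Il18 had the largest differences and lay lower together. They come from RefSeq at GRCm38.p6, all on the plus strand, as the 250 bases before a transcript start. For Casp12 only the first 236 of these are shown, since other transcripts of the gene begin earlier. That stretch ends short of the transcript start used, and its last bases, from 5345442 on, lie inside the gene's annotated span. Casp4 has 2 annotated starts close to each other, and the window of the one farther upstream is shown. Capitals mark matches, on either strand, to 4 motifs: the interferon-stimulated response element (GAAA, any 2 bases, GAAA), the gamma-activated site TTCNNNGAA bound by STAT dimers, the PU.1 site GAGGAAGT, and the kappaB consensus of NF-kB.
Casp1 (chr9:5298267-5298516): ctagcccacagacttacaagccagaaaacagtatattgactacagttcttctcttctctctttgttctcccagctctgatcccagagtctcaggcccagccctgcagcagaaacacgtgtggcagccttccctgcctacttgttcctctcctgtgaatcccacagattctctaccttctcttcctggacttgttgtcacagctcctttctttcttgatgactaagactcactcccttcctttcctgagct
Casp4 (chr9:5308599-5308848): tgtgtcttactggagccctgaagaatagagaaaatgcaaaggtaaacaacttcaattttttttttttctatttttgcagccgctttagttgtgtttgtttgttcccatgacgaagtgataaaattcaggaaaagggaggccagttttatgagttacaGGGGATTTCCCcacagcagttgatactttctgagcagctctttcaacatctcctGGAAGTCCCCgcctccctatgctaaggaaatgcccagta
Casp12 (chr9:5345226-5345461): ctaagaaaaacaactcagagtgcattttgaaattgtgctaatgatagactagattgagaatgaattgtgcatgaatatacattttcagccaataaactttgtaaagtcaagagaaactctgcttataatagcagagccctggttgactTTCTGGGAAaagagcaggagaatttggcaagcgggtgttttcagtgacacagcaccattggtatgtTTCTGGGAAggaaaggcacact
Il18 (chr9:50554450-50554699): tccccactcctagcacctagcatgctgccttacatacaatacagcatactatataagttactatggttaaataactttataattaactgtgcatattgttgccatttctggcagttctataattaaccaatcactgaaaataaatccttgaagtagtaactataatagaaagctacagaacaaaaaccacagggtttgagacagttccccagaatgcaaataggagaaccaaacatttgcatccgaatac
The Casp4 window held kappaB matches in 2 places, beginning 93 and 39 bases before the start. In the first place 2 matches on the gene's strand overlapped each other, shifted by 1 base, and the opposite strand matched as well. The Casp12 window held the gamma-activated site letters in 2 places, with the same 9 letters each time. They began 102 and 36 bases before the transcript start used, which lies beyond the end of the bases shown. The second match spans position 5345442, where the gene's annotated span begins. The Casp1 and Il18 windows held none of the 4 motifs. For 9 of the 10 genes, all but Gsdmd, 11 windows were at hand, and a gene counted if any of its windows matched. Among these 9 genes, the gamma-activated site was found in 1, the PU.1 site in 2 (Aim2 and Pycard), the kappaB consensus in 2 (Casp4 and Nlrp3) and the interferon-stimulated response element in 0. Of all 32817 windows of 250 bases, 7.01% held the gamma-activated site, 2.44% the PU.1 site, 7.25% the kappaB consensus and 2.97% the interferon-stimulated response element. These shares are per window, a different unit from the counts of genes.

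Among the sensors, Aim2 encodes the receptor for DNA in the cytosol. It had log2 values of 6.78, 6.38 and 6.07 in CCR2-positive pools, against 6.96, 6.84 and 7.11 in CCR2-negative pools. All CCR2-positive pools lay below all CCR2-negative pools, with replicate 1 of the CCR2-positive group close to replicate 2 of the other. The means were 6.41 ± 0.36 and 6.97 ± 0.13 (SD, n = 3 each), and the difference was -0.56 with a standard error of 0.18. Nlrp3 encodes the sensor of membrane damage and potassium loss. It had 4.62, 4.88 and 4.82 in CCR2-positive pools, against 4.60, 4.31 and 4.54 in CCR2-negative pools. The lowest CCR2-positive pool and the highest CCR2-negative pool were almost level, and the difference was 0.29 with a standard error of 0.12.

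Mefv encodes pyrin, a sensor that responds to certain bacterial toxins. It had 4.91, 4.85 and 4.95 in CCR2-positive pools, against 4.38, 4.44 and 4.37 in CCR2-negative pools. Its pools agreed closely within each group, with SDs of 0.05 and 0.04, and the groups lay well apart. The means were 4.91 and 4.40, a difference of 0.51 with a standard error of 0.10. The difference was 0.44 after a second quantile normalization and 0.43 with cyclic loess, a move larger than the SD between pools, in the same direction.

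Pycard encodes ASC, the adaptor that links sensors to caspase-1. It had 7.88, 8.02 and 7.93 in CCR2-positive pools, against 8.16, 8.66 and 7.90 in CCR2-negative pools. The groups overlapped, and CCR2-negative replicate 2 stood above the other 5 pools. The difference was -0.30 with a standard error of 0.18, and it was -0.09 without CCR2-negative replicate 2.

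The 3 inflammatory caspases lay lower in CCR2-positive pools. Casp1 encodes the protease of the canonical inflammasome. It had 6.55, 6.43 and 6.78 in CCR2-positive pools, against 7.10, 7.72 and 7.08 in CCR2-negative pools. No pools overlapped between the groups, and CCR2-negative replicate 2 was again the highest. The means were 6.59 ± 0.18 and 7.30 ± 0.37 (SD, n = 3 each), and the difference was -0.71 with a standard error of 0.19.

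Casp4 encodes the mouse caspase that binds lipopolysaccharide in the cytosol and drives the non-canonical pathway. It had 6.72, 5.99 and 7.42 in CCR2-positive pools, against 7.60, 8.24 and 7.40 in CCR2-negative pools. CCR2-positive replicate 3 lay within the CCR2-negative range, so the groups overlapped, and the spread was wider than for the other caspases. The means were 6.71 ± 0.71 and 7.75 ± 0.44 (SD, n = 3 each), and the difference was -1.04 with a standard error of 0.34. It was -0.68 without CCR2-positive replicate 2 and -1.39 without CCR2-positive replicate 3.

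Casp12 encodes a caspase of the same family, described in mice as linked to the endoplasmic reticulum. It had 5.41, 5.22 and 5.64 in CCR2-positive pools, against 6.23, 6.43 and 5.86 in CCR2-negative pools. The groups did not overlap, and the means were 5.42 ± 0.21 and 6.17 ± 0.29 (SD, n = 3 each), a difference of -0.75 with a standard error of 0.17. The order of the pools was nearly the same in all 3 caspase genes. CCR2-negative replicate 2 was highest and CCR2-positive replicate 2 lowest in each of the 3, and CCR2-positive replicate 3 was the highest pool of its group in each.

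Gsdmd encodes gasdermin D, which forms the pores of pyroptosis. It had 7.41, 6.96 and 7.10 in CCR2-positive pools, against 7.83, 7.85 and 7.60 in CCR2-negative pools. The groups did not overlap, and the difference was -0.61 with a standard error of 0.14. Gsdmd was the single gene of the 10 with a second probe set. That one had 6.74, 7.22 and 5.81 in CCR2-positive pools, against 7.64, 7.22 and 7.39 in CCR2-negative pools. Its mean was also lower, by a difference of -0.83, but CCR2-positive replicate 2 was level with the lowest CCR2-negative pool, so the probe sets differ in which pool lies lowest.

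Of the cytokine genes, Il18 encodes a precursor that many resting cells hold in store and that caspase-1 cuts. It had 5.43, 5.56 and 5.15 in CCR2-positive pools, against 6.76, 7.47 and 6.05 in CCR2-negative pools. The CCR2-positive pools lay close together below all CCR2-negative pools, which were themselves widely spread. The means were 5.38 ± 0.21 and 6.76 ± 0.71 (SD, n = 3 each), and the difference was -1.38 with a standard error of 0.31. With 5 of the 6 pools it lay between -1.73 and -1.02, the smaller size being without CCR2-negative replicate 2. Il1b encodes the precursor of IL-1 beta, which myeloid cells make on stimulation. It had 4.35, 4.22 and 3.94 in CCR2-positive pools, against 4.12, 3.86 and 4.18 in CCR2-negative pools. The groups overlapped across most of their range, and the difference of 0.12 was smaller than its standard error of 0.14. Leaving out CCR2-negative replicate 2 gave 0.02, and leaving out CCR2-positive replicate 3 gave 0.23.

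**Figure D1:**
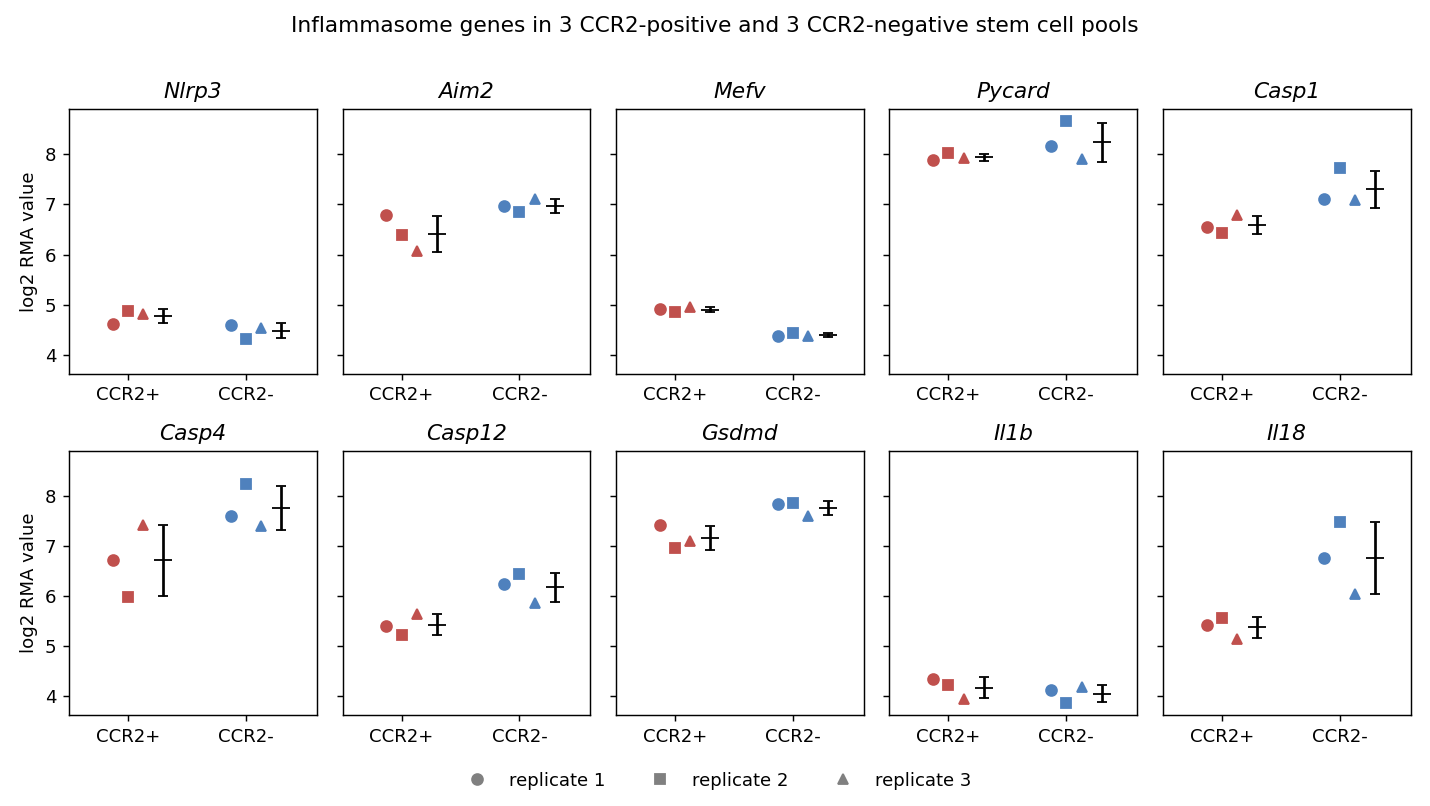
The log2 value (vertical axis) of each of the 10 genes is drawn for the 3 CCR2-positive pools (red, left) and the 3 CCR2-negative pools (blue, right), with the symbol giving the replicate and black bars the mean and SD. Il18 lies between 5.15 and 5.56 in CCR2-positive pools and between 6.05 and 7.47 in CCR2-negative pools, while the Il1b groups overlap.

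Set against each gene's own mean over the 6 pools, CCR2-negative replicate 2 stood out. It had the highest value of all pools for 6 of the 10 genes. It lay above the gene's mean by 1.40 for Il18, 1.01 for Casp4, 0.78 for Casp1, 0.63 for Casp12, 0.57 for Pycard and 0.39 for Gsdmd. The same pool had the lowest value for Nlrp3 and Il1b. CCR2-positive replicate 2 had the lowest value for 4 genes, namely Casp1, Casp4, Casp12 and Gsdmd, and Casp4 lay at -1.24 there. The mean of the 3 caspases relative to their level over all pools was -0.43, -0.78 and -0.05 in CCR2-positive pools, against 0.32, 0.81 and 0.12 in CCR2-negative pools. The groups thus did not overlap in this mean, but replicate 3 of each lay near the middle. Aim2 had another order, highest in CCR2-negative replicate 3 at 0.42 and lowest in CCR2-positive replicate 3 at -0.62. Il18 was also lowest in CCR2-positive replicate 3, at -0.92.

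**Figure D2:**
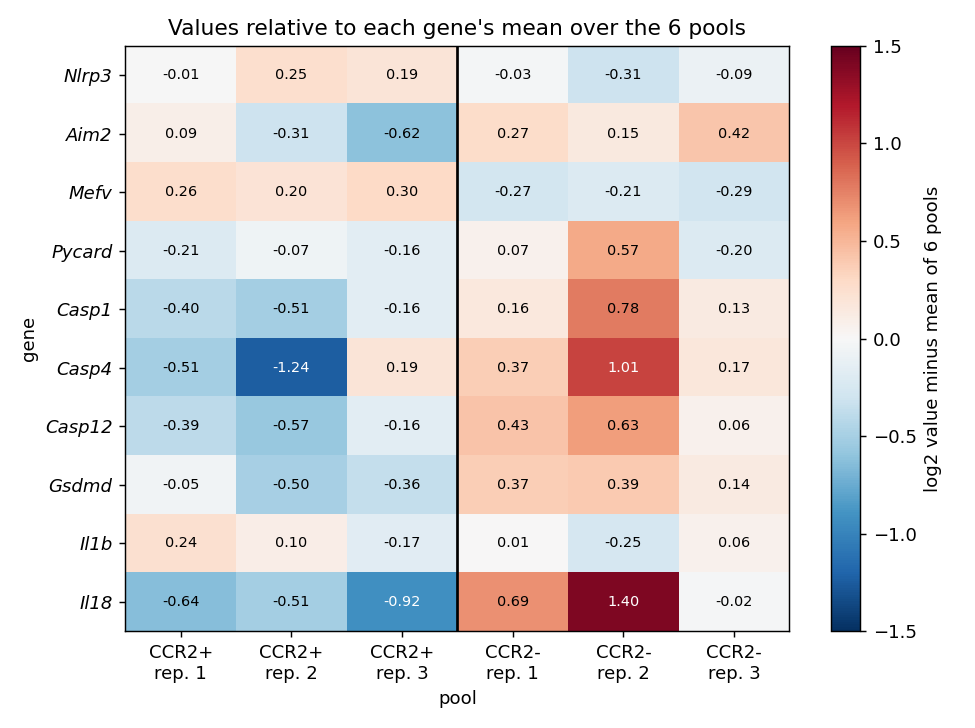
Each cell gives a gene's log2 value minus its mean over the 6 pools, with genes in rows, CCR2-positive pools in the left columns and CCR2-negative pools in the right ones. The strongest colours are Il18 and Casp4 in CCR2-negative replicate 2, at 1.40 and 1.01, and Casp4 in CCR2-positive replicate 2, at -1.24.

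Level divided the 10 genes in the same way as direction. The 7 genes that lay lower had a mean over the 6 pools at or above the median of all genes, 5.79, with Casp12 just above it. The 3 that lay higher had a mean under the 25th percentile, 4.66, with Mefv and Nlrp3 just below it. Signal over background is not known for these probe sets, so how much of a value this low is specific signal is not known. Among the 5545 genes under the 25th percentile, 65.9% lay higher in CCR2-positive pools, with a median difference of 0.05. Among the 11090 genes at or above the median level 43.9% lay higher, with a median difference of -0.03. The part of level in the differences of the 10 genes was not tested. The distribution of values was also narrower in CCR2-positive replicate 3, with an SD over genes of 1.64, than in the other 5 pools, where it was 1.70 to 1.75.

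**Figure D3:**
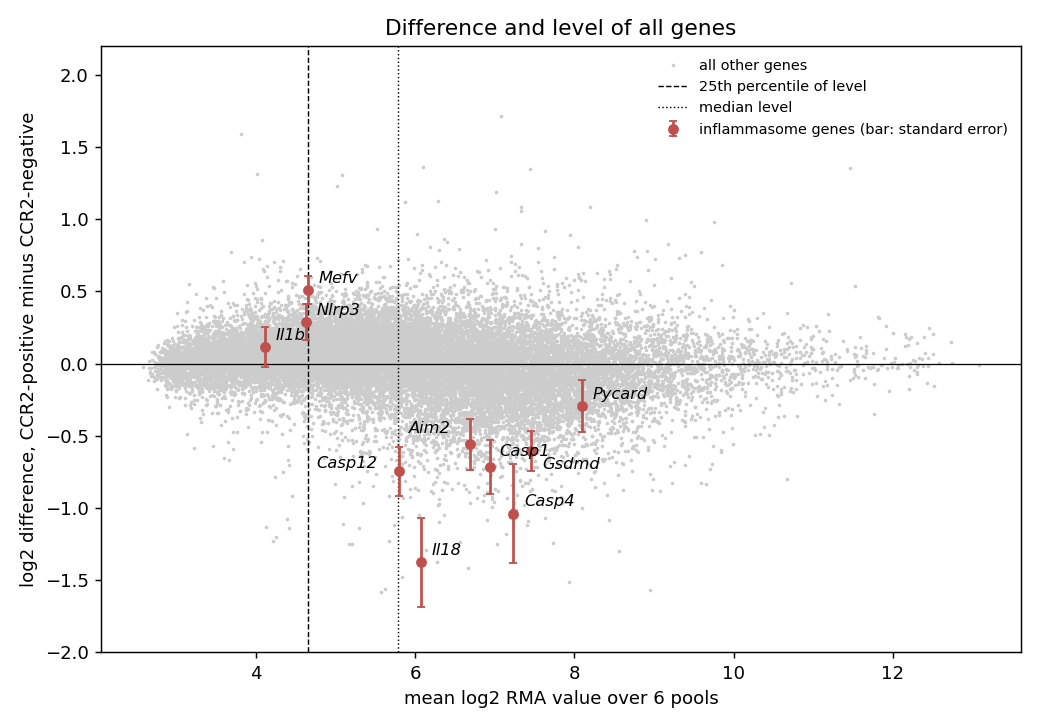
The log2 difference, CCR2-positive minus CCR2-negative (vertical axis), is plotted against the mean log2 value over the 6 pools (horizontal axis) for all genes in grey, with 1 gene outside the axis range, and for the 10 inflammasome genes in red with standard errors. The dashed line is the 25th percentile of level and the dotted line the median, and the 3 genes left of the dashed line are Mefv, Nlrp3 and Il1b.

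The other genes of the pathway were taken from 7 lists chosen by function, with 87 symbols of which 71 were measured. The lists were drawn up with earlier results of these data known, so their counts and shares are a description only. Of the 71, 0 had an adjusted p under 0.05 by limma over all genes. At an unadjusted p under 0.05, 10 were lower and 0 higher in CCR2-positive pools, 14.1% of the 71, against 12.2% of all genes (6.61% lower and 5.63% higher). The split over all genes, 1467 lower and 1249 higher, was 1732 and 913 after median centring. Among the 11090 genes at or above the median level, fitted alone, 1524 had such a p, 1123 lower and 401 higher. In that fit 9 pathway genes had such a p. It held only a part of the 71, so the 9 are not set against a share. Without CCR2-negative replicate 2 the number of pathway genes at this unadjusted p was 6, and 2099 of all genes. In all, 42 lay lower and 29 higher, and their median difference was -0.04 against 0.03 over all genes. The genes named next are those with the smallest unadjusted p of each list, up to 3 a list. Il18r1, Irf8, Rela, Nek7, Naip6 and Nlrc4 were added to them after their values were seen.

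On the IL-18 side, Il18rap encodes the accessory chain of the IL-18 receptor. It had 5.57, 5.65 and 5.67 in CCR2-positive pools, against 6.13, 6.16 and 6.55 in CCR2-negative pools. The groups did not overlap, and the difference was -0.65 with a standard error of 0.13 (limma, adjusted p = 0.177). The ligand-binding chain Il18r1 is not among the 3 with the smallest p and had overlapping pools, with a difference of -0.11 and a standard error of 0.13. Sigirr, an inhibitory receptor of the family, differed by -0.40 with a standard error of 0.18, and Il1a, the alarm cytokine IL-1 alpha, by 0.21 with a standard error of 0.11. Of the 11 measured genes of IL-1 family ligands, receptors and antagonists, 5 lay lower and 6 higher.

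Downstream of the receptors, Irak3 encodes a kinase-like inhibitor of IL-1 and Toll-like receptor signalling. It had 6.51, 6.82 and 6.85 in CCR2-positive pools, against 7.64, 7.31 and 7.39 in CCR2-negative pools. The groups did not overlap, and the difference was -0.72 with a standard error of 0.14 (limma, adjusted p = 0.177). Tab1 and Tab3, adaptors of the kinase TAK1, differed by -0.41 with a standard error of 0.24 and by 0.30 with a standard error of 0.24. Of the 10 measured signalling genes 8 lay lower, with a median difference of -0.04.

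Among the 5 measured transcription factors known to drive inflammasome genes, 3 had an unadjusted p under 0.05 (limma), all lower. In that direction 6.61% of all genes had such a p. All 5 had a mean above the median level, where 1123 of 11090 genes, fitted alone, had such a p and lay lower. With 5 genes the list is small, and it was chosen with earlier results known. Irf2, which is needed for Gsdmd transcription in mouse macrophages, had 7.82, 7.96 and 7.73 in CCR2-positive pools, against 8.71, 8.13 and 8.38 in CCR2-negative pools. The groups did not overlap, and the difference was -0.57 with a standard error of 0.15 (limma, adjusted p = 0.235). Spi1, which encodes PU.1, differed by -0.32 with a standard error of 0.11, and Irf1, an interferon-induced factor, by -0.25 with a standard error of 0.10. Irf8 and Rela were the 2 that lay higher, by 0.38 and 0.10, and their pools overlapped.

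Among 14 measured regulators of inflammasome assembly and lytic death, 12 lay lower, with a median difference of -0.16. Txnip, which encodes a thioredoxin inhibitor that binds NLRP3, differed by -0.50 with a standard error of 0.14 (limma, adjusted p = 0.245). Pstpip1, the partner of pyrin whose human mutations cause an autoinflammatory disease, differed by -0.46 with a standard error of 0.14. Mlkl, the executor of necroptosis, differed by -0.40 with a standard error of 0.13. Nek7, which NLRP3 needs for assembly, had overlapping pools and a difference of -0.28 with a standard error of 0.14.

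The sensors outside the 10 genes did not lean one way. Of 18 measured, 7 lay lower and 11 higher, and the median difference was 0.03. Naip5 and Naip2, the receptors of bacterial flagellin and secretion system proteins, differed by -0.56 with a standard error of 0.21 and by -0.29 with a standard error of 0.12. Naip6, of the same family, lay the other way with a difference of 0.24 and a standard error of 0.29. The Naip genes are close paralogues, and probes may not tell them apart fully. Mndal, a neighbour of Aim2 in the family of interferon-induced DNA-binding proteins, differed by -0.52 with a standard error of 0.23. The core partner of the Naip proteins, Nlrc4, had 3.84, 3.90 and 3.82 in CCR2-positive pools, against 3.80, 3.91 and 3.85 in CCR2-negative pools, at the low end of the scale.

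The apoptotic and other caspases and the other gasdermins had 0 genes at an unadjusted p under 0.05, of 5 and 8 measured (limma). Casp8, the initiator of death receptor signalling, differed by -0.38 with a standard error of 0.18, and Casp6, an executioner caspase, by -0.18 with a standard error of 0.23. Casp14, a caspase of skin cells, differed by 0.11 with a standard error of 0.10. Among gasdermins, Gsdme, which caspase-3 cuts, differed by -0.14 with a standard error of 0.09. Gsdma2 and Gsdmc2, gasdermins of epithelia, differed by 0.21 and 0.20 at low values.

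**Figure D4:**
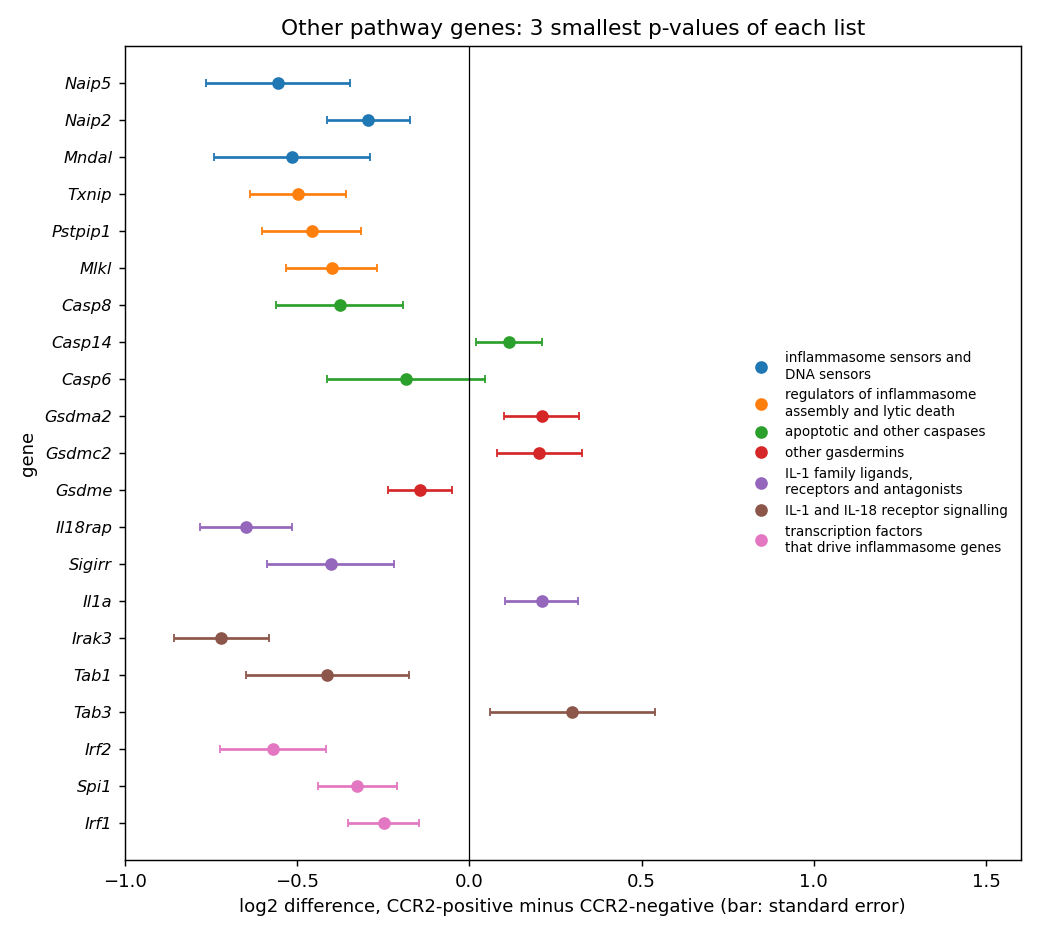
The log2 difference, CCR2-positive minus CCR2-negative (horizontal axis), is shown with its standard error for the 3 genes of each pathway list (vertical axis) with the smallest unadjusted p, coloured by list. Irak3 and Il18rap have the largest differences of those shown, at -0.72 and -0.65, and no gene passed an adjusted p of 0.05.

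The marker genes of the sorted cells and of other marrow cells differed between the same pools. Ccr2 itself had 6.81, 7.10 and 6.18 in CCR2-positive pools, against 5.63, 6.26 and 5.83 in CCR2-negative pools, with overlap between the groups. Stem cell markers had no value under 5.85 in any pool, where the median level of all genes was 5.79, and 9 of 10 measured lay lower in CCR2-positive pools. Their summed log2 values ranged from 72.65 to 74.99 in CCR2-positive pools, against 77.25 to 80.34 in CCR2-negative pools. Procr, Hlf, Mecom and Tek differed by -0.37, -0.66, -0.83 and -0.82, with standard errors of 0.13, 0.17, 0.25 and 0.16. Of 13 monocyte and macrophage markers 12 lay higher, with sums of 81.40 to 88.18 in CCR2-positive pools, against 78.34 to 81.76 in CCR2-negative pools. Among them Csf1r, Ly6c2, F13a1 and Ms4a6c differed by 0.35, 0.75, 0.66 and 0.45, with standard errors of 0.13, 0.37, 0.18 and 0.46.

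All 12 neutrophil markers lay higher, with sums of 64.16 to 71.71 in CCR2-positive pools, against 60.56 to 65.40 in CCR2-negative pools. S100a8, S100a9, Lcn2 and Ltf differed by 1.08, 0.74, 0.58 and 0.01, with standard errors of 0.96, 0.45, 0.14 and 0.15. All 7 measured erythroid markers lay higher, with sums of 59.69 to 63.14, against 54.42 to 57.79 in CCR2-negative pools. Rhag, Tspo2, Aqp1 and Epor differed by 1.09, 0.92, 0.78 and 0.51, with standard errors of 0.33, 0.28, 0.15 and 0.15. Of 9 lymphocyte markers 7 lay higher, with sums of 47.78 to 49.39, against 48.27 to 48.34 in CCR2-negative pools. Cd3e, Cd3g, Cd4 and Cd8a differed by 0.11, 0.14, 0.04 and 0.13, with standard errors of 0.12, 0.16, 0.11 and 0.13. The 7 higher ones all had means under the median level of all genes. The 2 lower ones, Cd79b and Nkg7, lay above it and differed by -0.25 and -0.24, with standard errors of 0.18 and 0.14. Over all genes 56% lay higher, as did 65.9% of those under the 25th percentile of level, where Camp, Retnlg and Ly6g lay. The array values have no zero, so no marker can be called absent. In pooled cells, fewer cells of a type and less RNA per cell cannot be told apart. The stem cell markers, whose sums did not overlap between the groups, had a median difference of -0.42, in the direction of the 7 lower genes. The erythroid markers, whose sums did not overlap either, had a median of 0.72, and the monocyte and neutrophil markers, whose sums overlapped, had medians of 0.31 and 0.24, all in the direction of Mefv, Nlrp3 and Il1b. The part of these markers in the values of the 10 genes was not tested.

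For the 5 genes whose values spanned at least 1 on the log2 scale, the most alike genes were found by the root mean square of the differences between centred values over the 6 pools, among 10095 named genes at or above the median level. Nearest to Il18 were Rnase6, Ctla2b and Anxa1, at 0.186, 0.278 and 0.291 on the log2 scale. Nearest to Casp1 were Gimap9, Epsti1 and Commd6, at 0.0903, 0.104 and 0.118. Nearest to Casp12 were Dtnbp1, Pts and Taf1b, at 0.0738, 0.0923 and 0.0955. Nearest to Casp4 were Gimap1, Gstk1 and Klk8, at 0.261, 0.265 and 0.308. Nearest to Aim2 were Ccdc82, Slc25a12 and Ago1, at 0.0714, 0.0808 and 0.0809. The likeness rests on 6 pools that also share the difference between the groups.

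The neighbours of these genes on chromosome 9 differed among themselves. The protein-coding gene before the caspase cluster, Gria4, ends 502283 bp before Casp1, and the one after it, Pdgfd, starts 795329 bp after Casp12. Gria4, a glutamate receptor subunit, had a difference of 0.14 with a standard error of 0.10, and Pdgfd, a growth factor, one of 0.00 with a standard error of 0.22. Both lay under the median level of 5.79, Gria4 with means of 4.80 and 4.67 in CCR2-positive and CCR2-negative pools, and Pdgfd with 5.43 in both. The next gene beyond Gria4, Msantd4, had a difference of -0.41 with a standard error of 0.13, in the direction of the 3 caspase genes. In RefSeq, Bco2 overlaps the start of Il18 and Tex12 lies inside its span, so their values and those of Il18 may share signal. Bco2 and Tex12 differed by -0.13 with a standard error of 0.11 and by -0.17 with a standard error of 0.11, against -1.38 for Il18. Both had low values, with means of 4.70 and 4.83 for Bco2 and of 4.16 and 4.34 for Tex12 in CCR2-positive and CCR2-negative pools. Pts, which ends 25984 bp before Il18 and was among the genes nearest to Casp12, differed by -0.59 with a standard error of 0.16. Sdhd, which starts 14499 bp after Il18, differed by 0.19 with a standard error of 0.10.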

How the data were processed

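The authors deposited 1 table of log2 values for 41345 probe sets on 6 arrays, made with RMA per the submitters' processing notes. RMA corrects background, equalises distributions and summarises probes, so differences are relative to the other genes of an array, and its version is not given in the sources used here. Biotin-labelled material came from amplified RNA, per the labels' protocols. The 23521 probe sets with 1 gene in the platform annotation were used, the one with the highest mean per gene, which left 22180 genes. The comparison, CCR2-positive minus CCR2-negative, used lmFit and eBayes of limma 3.58.1 (R 4.3.3), with Benjamini-Hochberg adjustment over all genes. The fit was also run on simulated data with noise drawn separately for each gene. That run checks the code and not the error rates in these pools. Standard errors are those of this fit, and their median over genes was 0.127. The number of arrays limits the precision. The 10 genes and the lists were chosen with earlier results of these data known. Named pathway genes are those with the smallest p of each list, up to 3, marker genes the first 4 measured of each list, and a few others (Il18r1, Irf8, Rela, Nek7, Naip6 and Nlrc4) were added after their values were seen. Alternatives were filters on dim probe sets, a second quantile normalization, median centring, cyclic loess, a replicate block, other moderation, weights per array, averaging probe sets per gene and each pool left out.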

Additional observations from a re-analysis of the deposited data

How the results depend on the processing

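The counts of genes past an adjusted p of 0.05 stayed at 0 over all genes and over the pathway genes under the filters on dim probe sets, the other normalizations, the replicate block, trend and robust moderation, array weights and the mean of probe sets. With 1 pool left out at a time the count over all genes ranged from 0 to 2, with the 2 genes called without CCR2-positive replicate 1, and that over the pathway genes was 0 each time. A threshold of 0.2 on the adjusted p gave 318 genes over all and 2 pathway genes (Irak3 and Il18rap), and one of 0.05 on the unadjusted p gave 2716 and 10. With the replicate number as a block 0 genes passed, 2935 had an unadjusted p under 0.05, and the smallest adjusted p was 0.0618, against 0.177 without it. The deviations of same-numbered pools correlated at 0.0348, 0.0892 and 0.0447, and 4 of the 6 pools correlated best with their own number. The labels do not say that the numbers mark a shared origin, and whether they pair the pools is not settled by these values. Of the 10 inflammasome genes 7 lay lower under every alternative run that kept all 10, and the 7 that passed the filters on dim probe sets were the lower ones. No gene of the 10 turned its direction. The median difference lay between -0.71 and -0.48 with 5 pools and between -0.71 and -0.46 under the other alternatives, the -0.71 there being over the 7 genes left by the filters. The differences of Mefv after a second quantile normalization and cyclic loess (0.44 and 0.43) moved by more than its SD between pools. Signal over background is not known for any probe set.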
